A study of Mus musculus with 4 samples.

Results

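Tnf superfamily genes of B cells were followed on 4 arrays of B220 B cells, that is, B-lineage cells recognised by B220, a form of the phosphatase CD45 on their surface. The 10 genes are the BAFF receptors Tnfrsf13c, Tnfrsf13b and Tnfrsf17, the receptors Cd40, Fas and Cd27, and the ligands Tnfsf13b (BAFF), Ltb, Lta and Tnf. They were taken by gene name from the scanner files, which gave 13 of 41174 gene probes (10 of 28303 genes or names), a rule that uses no measured value. The cells came, freshly isolated, from the bone marrow or the spleen of naive mice whose strain is given as Mef2c KO (knockout of the transcription factor gene Mef2c) or C57BL/6 (wild type, WT). Each of the 4 groups, marrow KO, marrow WT, spleen KO and spleen WT, had 1 array. The sources used here do not give age, sex, the number of animals behind an array, how the cells were isolated, which part of Mef2c was deleted or on which strain.

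BAFF is a cytokine that keeps maturing and mature B cells alive. It binds BAFF-R (Tnfrsf13c), the main survival receptor of resting B cells, TACI (Tnfrsf13b), which restrains B cell numbers and serves T-independent responses, and BCMA (Tnfrsf17), which serves long-lived plasma cells. CD40 receives help from T cells, Fas carries a death domain and can trigger apoptosis, and CD27 is a costimulatory receptor for CD70. Lymphotoxin alpha (Lta) forms a soluble trimer or joins lymphotoxin beta (Ltb) in a membrane trimer, and B cells use the latter to organise the follicles of the spleen. TNF, the best-known ligand of the family, is encoded between both lymphotoxin genes.

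Each probe is an oligonucleotide of 60 bases, and its position is given on build mm9 as in the array design. The probe for Tnfrsf13c lay at chr15:82052225-82052284, that for Tnfrsf17 at chr16:11320045-11320104, that for Cd40 at chr2:164896301-164896360 and that for Cd27 at chr6:125183076-125183135. Those for Ltb (chr17:35333097-35333156), Tnf (chr17:35336795-35336854) and Lta (chr17:35340275-35340334) lay within 7238 bases of each other. Of the genes, 3 had 2 probes, and these did not always give the same difference. Tnfrsf13b had a probe listed under a RefSeq transcript (chr11:60954968-60960376, whose 60 bases span 5409 genomic bases and therefore cross a splice junction) and a probe listed under a cDNA clone (chr11:60962499-60962558). Fas had a RefSeq probe (chr19:34401902-34401961) and a clone probe 18109 bases away (chr19:34383733-34383792). Tnfsf13b had a RefSeq probe (chr8:10035561-10035620) and a probe listed under an Ensembl transcript 1762 bases further on (chr8:10037383-10037442). No exon annotation of mm9 was used here. The first 30 bases of these 6 probes are shown because the results for their genes turn on which probe is read, and those for Tnfrsf17, Lta and Tnf because these genes had the largest differences between groups at the brightest probe of each gene.
Tnfrsf13b RefSeq probe: gcaccagggatctgagcatggtccaggatt
Tnfrsf13b clone probe: agacgaacctatttctagtctttaagatct
Fas RefSeq probe: caactcctggtgtgttctctttgccagcaa
Fas clone probe: ggagagactctttaaaatgaaaacacaata
Tnfsf13b RefSeq probe: cgttgaatctgatccaaaccaggaaatata
Tnfsf13b Ensembl probe: ttgcctgtgctggtattttgaggtgtttct
Tnfrsf17 probe: tagataatgagcttcctaactggtgtgaag
Lta probe: aggggaaaaatagaaagccgtcagatgaca
Tnf probe: tgggctttccgaattcactggagcctcgaa

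The RefSeq promoter table of build GRCm38.p6 held 10 promoters for 9 of the genes, each with 250 bases before and 50 after the gene's start. They were searched on both strands for the MEF2 consensus, the binding motif of the factor family that Mef2c belongs to, and for the NF-kB consensus, the motif of the factors downstream of these receptors, each of 10 bases. The MEF2 consensus was found in the promoter of Tnfrsf17 (chr16:11313559-11313858, plus strand), at -115 to -106 from the start, and it occurs in 183 of 32851 promoters of the table (0.557%). The NF-kB consensus was found in the promoter of Ltb (chr17:35194257-35194556, plus strand), at -87 to -78, and it occurs in 2779 promoters (8.46%). Capitals mark the matches, which describe letters in a window and not bound sites.
Tnfrsf17 promoter: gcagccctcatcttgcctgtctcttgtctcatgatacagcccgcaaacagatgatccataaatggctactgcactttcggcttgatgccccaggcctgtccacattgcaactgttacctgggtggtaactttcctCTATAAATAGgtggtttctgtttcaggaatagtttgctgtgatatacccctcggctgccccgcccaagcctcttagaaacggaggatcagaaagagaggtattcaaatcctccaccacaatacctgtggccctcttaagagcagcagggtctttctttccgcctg
Ltb promoter: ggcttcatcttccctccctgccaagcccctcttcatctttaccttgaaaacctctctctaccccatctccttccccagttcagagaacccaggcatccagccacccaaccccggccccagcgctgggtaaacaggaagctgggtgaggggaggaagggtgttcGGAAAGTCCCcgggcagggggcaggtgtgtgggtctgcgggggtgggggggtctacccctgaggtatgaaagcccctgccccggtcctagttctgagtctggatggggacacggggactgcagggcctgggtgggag

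Levels are log2 signals relative to the 75th percentile of all gene spots on an array, so that 0 is that percentile, and a difference of 1 is a 2-fold difference. Probes differ in how well they bind, so levels are compared between arrays and never between genes. The spleen KO array stood apart from the others, with a 75th percentile of 520 signal units against 961 to 1008 and with 59.3% of gene spots well above background against 69.1% to 72.0%. The median gene was 0.27 higher on spleen KO than on spleen WT, and 0.76 higher among the brightest 25% of genes, whereas marrow KO and WT differed by -0.06. Both marrow arrays were on 1 slide and both spleen arrays on another, and on each slide KO took position 1 and WT position 2, so that tissue and slide, and genotype and position, cannot be told apart. Mef2c, the targeted gene, was not lower on either KO array by its brighter probe, with signals of 5511 (KO) and 4218 (WT) in the marrow and 11838 (KO) and 8534 (WT) in the spleen. Its dim probe read 28.5, 21.2, 128 and 364 in the same order. As the deleted part is not known here, these probes may lie outside it and then check nothing, and KO and WT below name the arrays as labelled.

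The core B-lineage markers Cd79a, Cd79b, Ptprc, Pax5, Ebf1 and Blnk were well above background on every array, and the brightest, Cd79b, differed between KO and WT by -0.34 in the marrow and 0.24 in the spleen. Markers of other cells were measured too, and their signals, each divided by the array's 75th percentile, were summed over each list. For 10 neutrophil markers the sum was 1438 (KO) and 439 (WT) in the marrow and 145 (KO) and 11.2 (WT) in the spleen, with 9 of 10 at least 2-fold higher on the KO array in the marrow and 6 higher and 1 lower in the spleen. The brightest of them, S100a9, had signals of 452942, 264017, 60454 and 7613 in the same order, and all 10 were well above background on every array except Mmp9 on spleen KO. For 10 macrophage markers the sums were 18.0, 21.2, 144 and 54.8, and for 9 T cell markers 7.13, 4.31, 7.32 and 7.46. Their brightest genes, Vcam1 and Lck, had KO minus WT differences of -0.24 and 0.13 in the marrow and 1.81 and 0.17 in the spleen. Of the macrophage markers, 0 were at least 2-fold higher on KO and 1 lower in the marrow, and 6 higher and 1 lower in the spleen. Of the T cell markers, 3 were higher and 0 lower in the marrow, and 1 higher and 2 lower in the spleen, where 34.3% of all genes passed 2-fold. The spleen count of T cell markers is therefore near the background. In bulk RNA, fewer cells of a type and less RNA per cell cannot be told apart.

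Of 52 values (13 probes on 4 arrays), 50 were well above background, and the other 2 were the RefSeq probe of Tnfsf13b on both spleen arrays. No value was saturated. With 1 array per group, no difference within a tissue or a genotype has a replicate check. The only errors at hand are technical: the repeated spots of the probes for Cd40, Fas, Lta and Tnf, 10 on each array, had an SD of 0.02 to 0.14 log2 units, and the scanner software put the error of the members' signals at 10% to 29.1%. These cover the spotting and reading of 1 array and nothing between animals.

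**Figure D1:**
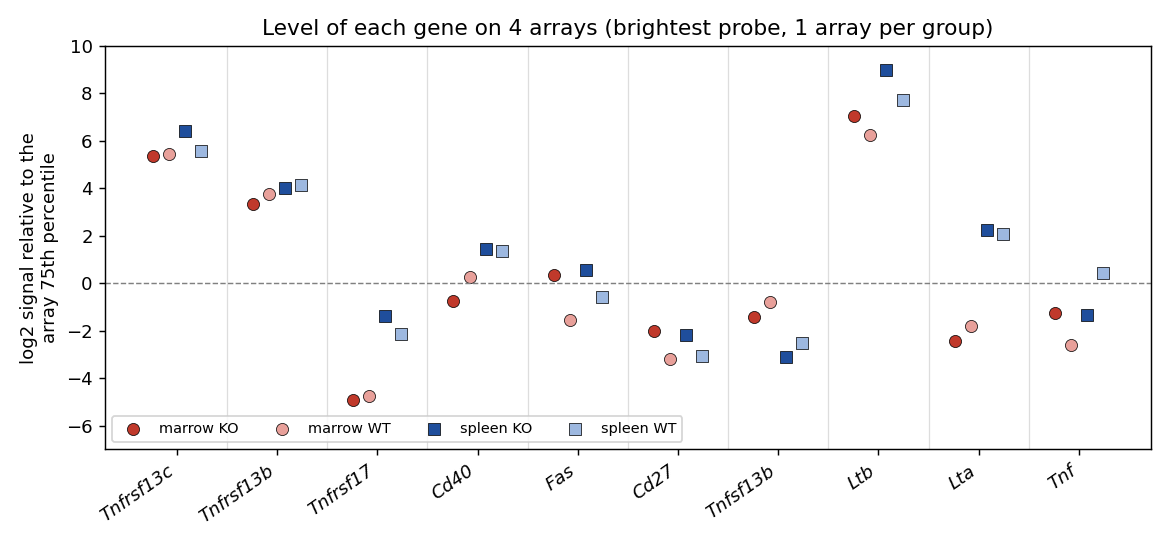
Log2 signal relative to the array's 75th percentile (y axis) of each gene's brightest probe (x axis) on the 4 arrays, 1 point per array, with no error bar because each group had 1 array. Lta and Tnfrsf17 lay higher on both spleen arrays than on both marrow arrays, Tnfsf13b lay lower there, and the Tnf level was highest on spleen WT (0.44) and lowest on marrow WT (-2.59).

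Among the BAFF receptors, Tnfrsf13c (BAFF-R) was under 2-fold apart between KO and WT in both tissues. Its levels were 5.36 (KO) and 5.46 (WT) in the marrow and 6.43 (KO) and 5.56 (WT) in the spleen. The marrow arrays and spleen WT lay close together, and spleen KO was highest. KO minus WT was -0.10 in the marrow and 0.87 in the spleen, but the signals before scaling were 41424, 42388, 44808 and 45762, which puts the spleen difference at -0.03 without scaling. Cyclic loess, a scaling that follows signal strength, gave -0.16, so the sign of the spleen difference rests on the scaling.

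Tnfrsf13b (TACI) had levels of 3.34, 3.75, 4.03 and 4.15 at its clone probe, the brighter one, on marrow KO, marrow WT, spleen KO and spleen WT. The RefSeq probe, which crosses a junction, read -3.78, -3.09, -1.12 and 0.30. Both probes placed the arrays in the same order, lowest on marrow KO and highest on spleen WT. They differed in size: between the WT tissues the clone probe was 0.39 higher in spleen and the RefSeq probe 3.39 higher. KO minus WT in the spleen was -0.12 at the clone probe and -1.42 at the RefSeq probe, and in the marrow it was -0.42 and -0.69.

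Tnfrsf17 (BCMA), whose promoter with the MEF2 consensus is printed above, was dim in the marrow and brighter in the spleen. Its levels were -4.94 (KO) and -4.77 (WT) in the marrow and -1.39 (KO) and -2.14 (WT) in the spleen. Both spleen arrays lay above both marrow arrays, and the marrow signals, 33.0 and 35.2, were well above background by the scanner software's mark. The spleen level was 6.21-fold higher than the marrow level in WT and 11.7-fold higher in KO, that is, by 2.63 and 3.55 on the log2 scale, which became 1.47 and 2.19 with normexp background correction. KO minus WT was -0.16 in the marrow and 0.75 in the spleen. The 7 plasma cell markers, a list that fits the cells BCMA is known for, summed to 65.4, 48.1, 88.9 and 88.0. These sums are carried by Mzb1, the brightest, which was 0.73 higher on KO in the marrow and 1.29 in the spleen, whereas of the 7 markers 0 were at least 2-fold higher and 2 lower in the marrow (median -0.81) and 1 higher and 4 lower in the spleen (median -1.01). The J chain gene Jchain, lower on KO, had signals of 167, 927, 5041 and 44399. The part of such cells in the Tnfrsf17 values was not tested.

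Cd40 was lower on marrow KO than on the other arrays. Its levels were -0.77 (KO) and 0.25 (WT) in the marrow and 1.45 (KO) and 1.37 (WT) in the spleen. In the marrow the KO array was 2.03-fold below WT (-1.02), at percentile 4.6 of all measured genes, and in the spleen the difference was 0.08. The 10 repeated spots ranged from 559.6 to 626 signal units on marrow KO and from 1097 to 1172 on marrow WT, without overlap. On the spleen arrays they ranged from 1307 to 1498 on KO and from 2471 to 2581 on WT, so that without scaling the spleen KO array was 0.82 lower on the log2 scale. The marrow difference stayed between -1.07 and -0.95 over 7 other settings and passed 2-fold in 5 of them. Not all of these settings could change it: the deposited series matrix holds the same values, and settings that choose or average probes cannot change a gene with no other probe. The 13 mature B cell markers summed to 69.4 on marrow KO and 126.5 on marrow WT, with 7 at least 2-fold lower and 0 higher (Ms4a1, the brightest, -0.94). In the spleen, where Cd40 differed by 0.08, they summed to 495 (KO) and 486 (WT), with 6 lower and 3 higher (Ms4a1 1.17). The part of mature cells in the Cd40 values was not tested.

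Fas was higher on the KO array of the marrow at both of its probes. The RefSeq probe read 0.36 (KO) and -1.57 (WT) in the marrow and 0.54 (KO) and -0.58 (WT) in the spleen. Both KO arrays lay above both WT arrays at this probe. KO was 3.81-fold above WT in the marrow (1.93, at percentile 97.1 of measured genes) and 2.17-fold above it in the spleen (1.11, at percentile 83.1). The clone probe read -2.72, -4.72, -3.97 and -3.78, which put KO 4.01-fold above WT in the marrow and gave -0.19 in the spleen. The marrow difference thus stood at both probes, which lie 18109 bases apart, and the spleen difference only at the RefSeq probe. The repeated spots of the RefSeq probe ranged from 1243 to 1358 on marrow KO and from 308 to 349 on marrow WT, and from 717 to 827 on spleen KO and 628 to 689 on spleen WT. Without scaling the spleen difference at this probe was 0.21. The neutrophil sums given above were also higher on KO than on WT within each tissue, and their part in the Fas values was not tested.

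Cd27 was higher on both KO arrays. Its levels were -2.00 (KO) and -3.18 (WT) in the marrow and -2.16 (KO) and -3.09 (WT) in the spleen. The KO arrays lay close together above the WT arrays, which also lay close together. KO minus WT was 1.18 in the marrow (2.26-fold) and 0.93 in the spleen, and the marrow difference fell under 2-fold, to 0.81, with normexp background correction. In signal units the marrow arrays read 252 and 106 and the spleen arrays 116 and 114, so the spleen difference came with the scaling (0.03 without it). The 10 early B cell markers, of which CD27 is no member, summed to 567 on marrow KO and 278 on marrow WT. Cd93, the brightest over all 4 arrays, was 0.37 higher on KO, and Vpreb1 and Dntt, the brightest on the marrow arrays, 1.34 and 1.54 higher. Of the 10 markers, 4 were at least 2-fold higher on KO and 1 was lower in the marrow. Of 7 measured in the spleen, 2 were higher and 2 lower. The part of early cells in the Cd27 values was not tested.

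**Figure D2:**
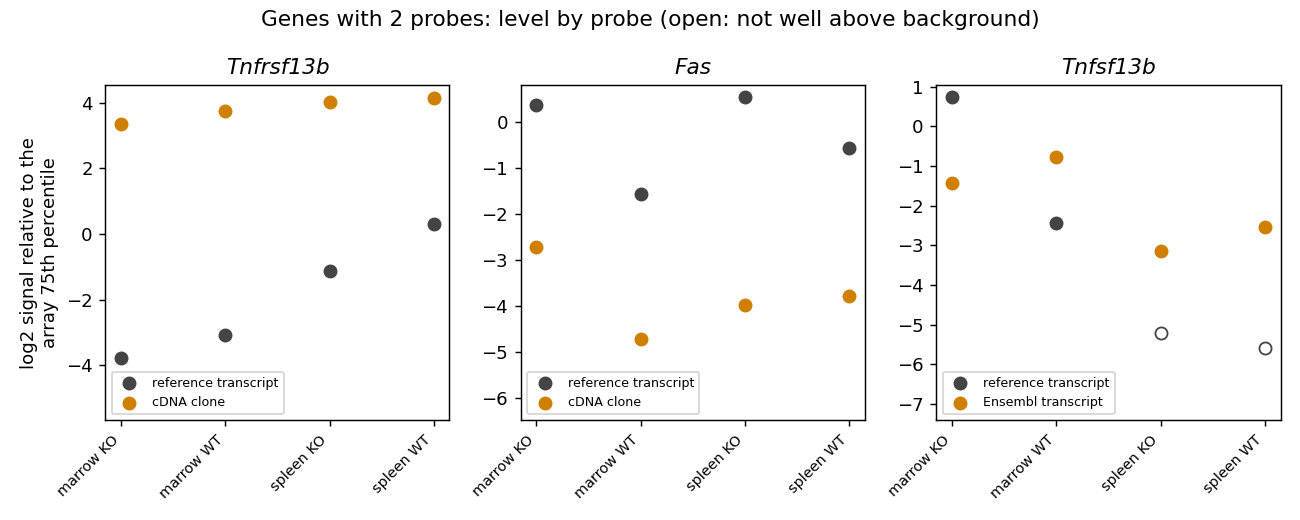
Log2 signal relative to the array's 75th percentile (y axis) on the 4 arrays (x axis) for each probe of the 3 genes with 2 probes (reference transcript is the RefSeq probe); filled points are well above background and open points are not. The Fas probes fell together from marrow KO to marrow WT, while the Tnfsf13b probes moved in opposite directions between these arrays.

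Among the ligands, Tnfsf13b (BAFF) was the gene whose probes disagreed most on the marrow difference. The Ensembl probe, the brighter one by the mean over arrays, read -1.42 (KO) and -0.78 (WT) in the marrow and -3.13 (KO) and -2.53 (WT) in the spleen. Both marrow arrays lay above both spleen arrays. The RefSeq probe read 0.73 on marrow KO and -2.44 on marrow WT and was not well above background on either spleen array. KO minus WT in the marrow was therefore -0.63 at the Ensembl probe and 3.17 at the RefSeq probe (8.97-fold higher), 3.80 log2 units apart. Of 6035 genes with several probes measured in the marrow comparison, 12.5% had probes more than 2-fold apart and 1.74% more than 4-fold apart. The lower level in the spleen was seen at both probes: 3.36-fold lower in WT and 3.28-fold lower in KO at the Ensembl probe (-0.92 in KO with normexp), and at least 8.91-fold and at least 50.9-fold lower at the RefSeq probe. BAFF is made chiefly by myeloid and stromal cells, and the neutrophil sum was 1438 on marrow KO against 439 on marrow WT; the part of such cells in the Tnfsf13b values was not tested.

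Ltb, whose promoter with the NF-kB consensus is printed above, was higher on both KO arrays than on the WT array of the same tissue. Its levels were 7.05 (KO) and 6.25 (WT) in the marrow and 8.99 (KO) and 7.70 (WT) in the spleen. Both spleen arrays lay above both marrow arrays. KO minus WT was 0.80 in the marrow (1.74-fold) and 1.29 in the spleen (2.45-fold). The signals were 133609, 73256, 265087 and 202211, and the spleen difference was 0.39 without scaling and -0.02 with cyclic loess, whereas the marrow difference stayed between 0.68 and 0.88.

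Lta differed most between the tissues when each gene is read at its brightest probe. Its levels were -2.44 (KO) and -1.82 (WT) in the marrow and 2.26 (KO) and 2.08 (WT) in the spleen. The spleen level was 3.91 above the marrow level in WT (percentile 99.6 of measured genes) and 4.70 above it in KO (26.1-fold, percentile 99.8). Its repeated spots ranged from 163 to 195 signal units on marrow KO, from 235 to 313 on marrow WT, from 2249 to 2718 on spleen KO and from 3741 to 4465 on spleen WT, so the spots of no array overlapped those of another. KO minus WT was -0.62 in the marrow and 0.18 in the spleen, the latter -0.73 without scaling. Lta and Ltb, partners in the membrane trimer, thus differed in opposite directions in the marrow.

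Tnf was the gene whose KO minus WT difference had opposite signs in both tissues with more than 2-fold on each side. Its levels were -1.26 (KO) and -2.59 (WT) in the marrow and -1.35 (KO) and 0.44 (WT) in the spleen. The KO arrays of both tissues lay between the WT arrays and differed by 0.09 from each other. KO was 2.51-fold above WT in the marrow (1.33, percentile 94.2) and 3.44-fold below WT in the spleen (-1.78, percentile 5.1). The repeated spots ranged from 393 to 442 on marrow KO, from 141 to 174 on marrow WT, from 189 to 218 on spleen KO and from 1261 to 1379 on spleen WT, without overlap. The marrow difference stayed between 1.04 and 1.47 and the spleen difference between -1.78 and -1.36 under the other settings, and the latter was -2.68 without scaling. Tnf is an inducible gene; the 14 immediate early genes, which respond to cell handling and stimulation, had 2 higher and 1 lower in the marrow and 7 higher and 1 lower in the spleen (Junb, the brightest, 0.37 and 1.29), and their part in the Tnf values was not tested.

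**Figure D3:**
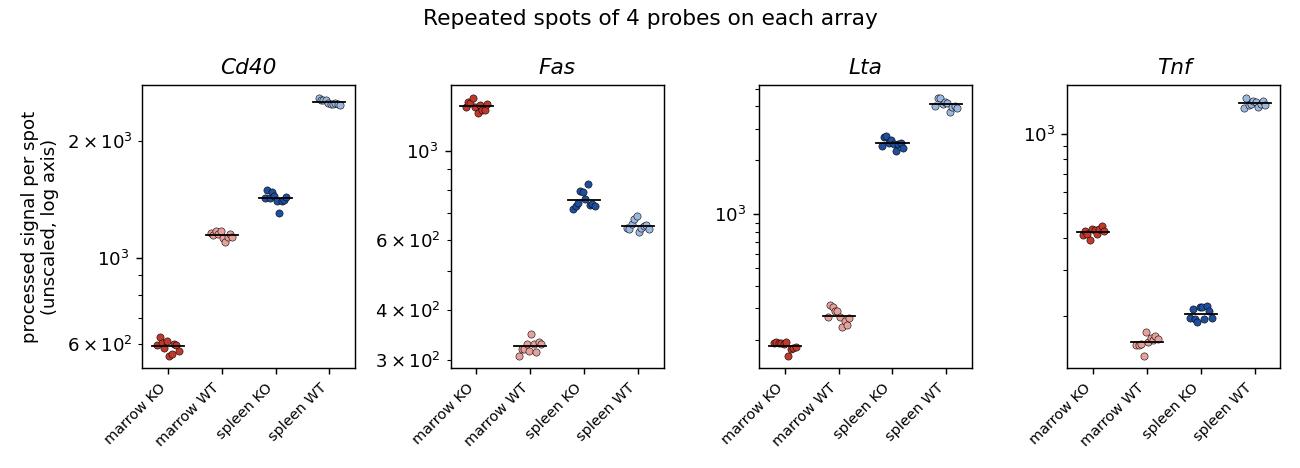
Processed signal before scaling (y axis, log scale) of each of the 10 spots of the probes for Cd40, Fas, Lta and Tnf on the 4 arrays (x axis); each point is 1 spot and each line the mean. The spots of each array form a group that does not overlap that of any other array for these 4 probes, and their scatter is that of spotting alone.

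Over the 10 genes, KO against WT in the marrow gave 3 genes at least 2-fold higher (Fas, Tnf and Cd27), 1 lower (Cd40) and 6 under 2-fold. The median difference of the genes was -0.13 against -0.06 for all genes. Of the 21228 genes on which the marrow comparison rests, 13.2% passed 2-fold: 8.34% higher and 4.90% lower. In the spleen 2 genes were higher (Ltb and Fas) and 1 was lower (Tnf), and the median was 0.46 against 0.27 for all genes, with 34.3% of 19806 genes past 2-fold, 19.8% higher and 14.5% lower. The spleen count is therefore near the background.

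**Figure D4:**
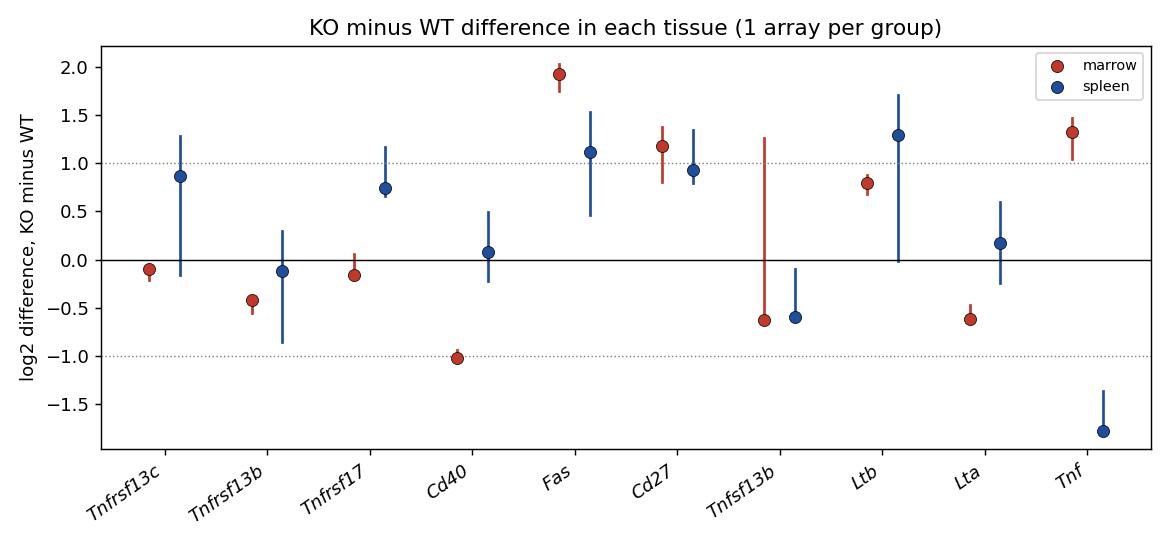
KO minus WT difference on the log2 scale (y axis) for each gene (x axis) in marrow and spleen; points are the reported values, dotted lines mark 2-fold, and vertical lines span the values under other scalings, normexp background correction and the median over a gene's probes, not those of each probe alone or without scaling and not an error between animals. Over these settings Fas and Cd27 lay above 0 in both tissues, although the Fas clone probe alone gave -0.19 in the spleen, Tnf was higher on KO in the marrow and lower in the spleen, and the vertical lines of 5 genes in the spleen (Tnfrsf13c, Tnfrsf13b, Cd40, Ltb and Lta) crossed 0. In the marrow the lines of Tnfrsf17 and Tnfsf13b crossed 0, and that of Tnfsf13b reached 1.27.

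Taking both tissues as repeats of 1 genotype effect, limma's moderated test with tissue as a term (1 residual degree of freedom, 22056 genes, Benjamini-Hochberg adjustment) called 0 of the 10 genes, and it called 8 genes higher (0.0363%) and 2 lower (0.00907%) in all. Fas alone of the 10 had an unadjusted p under 0.05, as had 11.3% of all genes tested. Its mean KO minus WT difference was 1.52 (SE 0.55), higher on KO in both tissues, with an adjusted limma p of 0.340 that ranged from 0.0526 to 0.516 over 9 alternatives. The mean for Cd27 was 1.05 (SE 0.54, adjusted limma p 0.499) and that for Ltb 1.04 (SE 0.54, adjusted limma p 0.506), both higher on KO in both tissues. For Tnf, whose differences had opposite signs, the mean was -0.23 (SE 0.72, adjusted limma p 0.940).

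The tissue comparison set spleen against marrow in each genotype. In WT, 5 of the genes were at least 2-fold higher in the spleen (Lta, Tnf, Tnfrsf17, Ltb and Cd40) and 1 was lower (Tnfsf13b), where 31.2% of 21444 measured genes passed 2-fold, 15.5% higher and 15.7% lower. In KO, 5 were higher (Lta, Tnfrsf17, Cd40, Ltb and Tnfrsf13c) and 1 was lower (Tnfsf13b), where 29.6% of 20316 genes passed 2-fold, 15.7% higher and 13.9% lower. The median differences were 1.06 in WT and 0.88 in KO, where those of all genes were -0.07 and 0.19. Tnf was 8.14-fold higher in the spleen in WT and differed by -0.09 in KO, but these values use the same 4 arrays as the KO minus WT differences and repeat the pattern given above.

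**Figure D5:**
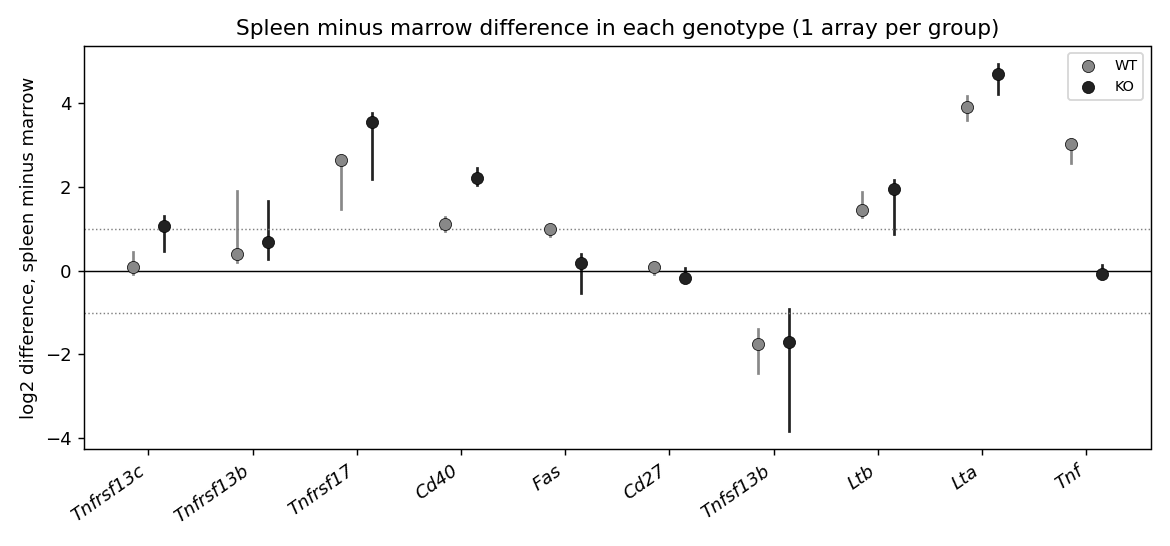
Spleen minus marrow difference on the log2 scale (y axis) for each gene (x axis) in WT and KO; points are the reported values, dotted lines mark 2-fold, and vertical lines span the values under other scalings, normexp background correction and the median over a gene's probes. Lta was highest in both genotypes (3.91 and 4.70), and Tnf was 3.03 higher in the spleen in WT and -0.09 in KO.

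In the same limma fit the tissue term, which takes both genotypes as repeats, called 2 of the 10 genes, both higher in the spleen, against 2.84% of all genes higher and 5.39% lower. Lta was 4.31 higher (SE 0.55, adjusted limma p 0.00111), and Tnfrsf17 was 3.09 higher (SE 0.55, adjusted limma p 0.00642), or 1.83 with normexp. Both rose in 2 of 2 genotypes, and both were called in 9 of 9 alternatives, with adjusted limma p up to 0.0219 for Lta and 0.0391 for Tnfrsf17. The alternatives include the deposited series matrix, which holds the same values as the main fit. Tnfsf13b was -1.73 (adjusted limma p 0.0787, called in 3 of 9 alternatives), Ltb 1.70 (0.0868, called in 2 of 9), Cd40 1.67 (0.104, called in 3 of 9) and Tnf 1.47 (0.291, called in 2 of 9). As each tissue had its own slide, this test cannot tell tissue from slide.

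Of the other TNF receptors, 22 genes were listed and 21 were measured in the marrow, with 5 at least 2-fold higher on KO and 1 lower (median 0.37). The higher ones were Tnfrsf1a, the main TNF receptor with a death domain (2.84), Ltbr, the receptor of the lymphotoxin membrane trimer (2.26), Tnfrsf11a, the receptor RANK (1.95), Tnfrsf18, the receptor GITR (1.31), and Tnfrsf21, the death receptor DR6 (1.27). In the spleen 20 were measured, with 3 higher (Ltbr 1.80, Tnfrsf1a 1.42 and Tnfrsf18 1.39), 2 lower (Relt -1.98 and Ngfr, the nerve growth factor receptor, -1.81) and a median of 0.43, beside 34.3% of all genes past 2-fold there and 13.2% in the marrow. The spleen count is thus no higher than the background. The limma genotype term called 0 of the list, and 5 had an unadjusted p under 0.05, beside 11.3% of all genes. Tnfrsf1a and Ltbr, which are widely made by myeloid cells, were higher on KO within each tissue, as were the neutrophil sums. Across tissues the order differed. Both genes were higher on spleen KO (levels 1.15 and 0.29) than on marrow WT (0.24 and -1.24). The neutrophil sum was 145 on spleen KO and 439 on marrow WT, and the macrophage sum was 144 and 21.2. These 2 arrays were on different slides. The part of neutrophils, macrophages or other myeloid cells in the values of both genes was not tested.

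Of the other TNF ligands, 14 were listed and 13 had a probe under their name. In the marrow 11 were measured, with 4 at least 2-fold higher on KO and 0 lower (median 0.57): Tnfsf14, the ligand LIGHT (3.58), Tnfsf11, the ligand RANKL (3.29), Tnfsf10, the death ligand TRAIL (1.65), and Tnfsf4, the OX40 ligand (at least 3.18-fold, as marrow WT was not well above background). In the spleen 10 were measured, with 5 higher and 0 lower (median 0.85). These were Tnfsf4 (at least 15.5-fold), Tnfsf18, the GITR ligand (3.21), Tnfsf9, the ligand of 4-1BB (1.69), Tnfsf11 (at least 2.80-fold) and Tnfsf10 (1.09). Of all genes, 8.34% were higher in the marrow and 19.8% in the spleen. The limma genotype term called 0 of them, and 6 had an unadjusted p under 0.05, beside 11.3% of all genes. The nearest to a call was Tnfsf4, with a fitted difference of 4.43 (SE 0.63) and an adjusted limma p of 0.0517, a fit that takes its WT signals, not well above background, at face value.

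Of 31 genes that carry the signal of these receptors (adaptors, kinases, NF-kB subunits and caspase regulators), 0 were 2-fold apart in the marrow, where differences ranged from -0.69 to 0.60. In the spleen 6 were higher and 3 lower, a count near the background of 19.8% and 14.5% of all genes. The 5 largest differences there were those of Cflar, an inhibitor of death receptor signalling (2.01), Birc2, a ubiquitin ligase of the receptor complexes (4.01-fold higher), Tank (1.80), Traf1 (1.72) and the NF-kB subunit Rela (-1.98). The list's spleen median of 0.48 stands beside 0.27 for all genes. The limma genotype term called 0 of them, and 2 had an unadjusted p under 0.05, beside 11.3% of all genes. Traf1, an adaptor of CD40 and the TNF receptors, was the gene of this list that the limma tissue term called, with 4.68 more in the spleen (SE 0.57, adjusted limma p 0.000901).

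For the genes that were well above background on every array and varied by an SD of at least 0.5, the most alike profiles over the 4 arrays were found by the root mean square distance between levels, each gene centred on its own mean, among 16509 genes. Nearest to Lta was C6, a complement component (0.0847), followed by Icosl, the ICOS ligand of B cells (0.164). Nearest to Cd40 was Irak2, a kinase of the Toll-like receptor pathway (0.0587), nearest to Fas was Pirb, an inhibitory receptor of myeloid and B cells (0.0871), and nearest to Tnfrsf17 were Cela1 (0.109) and Nr1h3, a nuclear receptor (0.121). Pea15a lay nearest to Ltb (0.0657), Tmco3 to Cd27 (0.0493) and Rab11fip5 to Tnfsf13b (0.0634). For Tnf the nearest gene with a symbol was Basp1 (0.144), at -4.12, -5.20, -4.08 and -2.56, which shared the high spleen WT and the low marrow WT level. Most of these genes had many others about as near. Within 0.25 lay 168 genes for Cd27, 74 for Ltb, 61 for Tnfsf13b, 56 for Cd40, 27 for Tnfrsf17 and 24 for Fas. For Lta there were 4 and for Tnf 2. These distances rest on 4 arrays and describe the profiles alone.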

How the data were processed

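RNA of B220 B cells was measured on 4 Agilent 1-colour arrays, and groups follow the labels. The authors' deposited scanner files hold intensity values on a linear scale, made with Agilent Feature Extraction 10.5.1.1 from a design with mm9 positions, per the file headers. The same headers record background correction and detrending of the processed intensity and name no normalization across arrays. The values of the deposited series matrix equalled the processed signal at 45018 of 45018 spots (tolerance 0), so it is linear and not centred, with column medians of 85.4, 82.7, 37.9 and 93.0 for marrow KO, marrow WT, spleen KO and spleen WT.

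Gene spots (43379 per array) were taken to log2 after division by the array's 75th percentile. Outlier spots were dropped and spots of a probe averaged, and each gene was read at the probe with the highest mean level. A gene was measured where its probe was well above background, by the scanner software's mark, on at least 1 of the 2 arrays. With 1 such array the fold is a bound, taken against the dim probe's value or, if higher, the lowest signal that was well above background there. Genes at least 2-fold apart were counted, with no p-value.

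The test was limma 3.58.1 (R 4.3.3) with tissue and genotype as terms over 22056 genes, with p-values adjusted by Benjamini-Hochberg and called below 0.05. It was tested on simulated data with known changes. Whether p-values measure more than the spread between these arrays is not known, since nothing says that the tissues came from separate animals. Probes were named by accession through the GRCm38.p6 table (25263 of 41174), by current symbol (6233) or by the file's name (9678).

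The 10 genes, all lists and tests were chosen with earlier results of these data known. Named from the lists of other receptors, ligands and signalling genes were at most 5 genes per list and tissue with the largest KO minus WT difference of at least 2-fold, from each marker list the brightest gene, and for likeness the nearest 2 genes. Named outside that rule, after their values were seen, were Mef2c, Jchain, Mmp9, Vpreb1, Dntt, the genes a limma term called or nearly called, and for some genes only the nearest of the likeness pair. The marker lists for NK cells and dendritic cells are given in the closing section, and a list of germinal centre B cell markers is not reported here. Alternatives were other scalings, normexp background correction, the median over probes, each probe alone, filters, thresholds and a variance trend.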

Additional observations from a re-analysis of the deposited data

Results flagged for a closer look

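The Tnf difference between KO and WT was 1.33 in the marrow and -1.78 in the spleen. It was singled out because the samples moved in opposite directions in both tissues, with 1 array in each group. The difference between the tissues' values, spleen minus marrow, was -3.11, and it was not tested, since it has no residual degree of freedom. The signs held under every other setting run for the marrow (7 settings) and the spleen (6 settings). Not all of these settings could change them: the series matrix holds the same values, and settings that choose or average probes cannot change a gene with 1 probe.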

How the results depend on the processing

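With 1 array per group nothing between animals was measured, tissue cannot be told apart from slide or genotype from position, and leaving out an array leaves no residual degree of freedom, so no such value is given. No paired analysis by replicate number was possible because each group has 1 array and the labels give no such numbers. The limma fit itself sets KO against WT within each tissue, and so within each slide. Causes of the shifts below were not tested. The series matrix gave the same values throughout. The scaling of spleen KO decides most spleen values: without scaling, a setting added after seeing the data, the 10 genes had 0 lower in the marrow, 0 higher and 3 lower in the spleen, and 3 higher and 3 lower between the KO tissues. The lower 75th percentile of spleen KO (520 against 970 on spleen WT) then enters every gene. All genes were not counted without scaling, so these counts have no background beside them. Under other settings the genes lower in the marrow were 0 with cyclic loess and 0 with normexp, which also left 2 higher (Cd27 fell under 2-fold), those higher in the spleen 5 with median scaling and 1 with the median over probes, and between the KO tissues 3 were higher with quantile normalization and 0 lower with normexp. The counts of all genes moved too. In the marrow 713 of 21228 were lower with cyclic loess, and 344 lower and 1043 higher with normexp. In the spleen 6531 of 19806 were higher with median scaling and 2947 of 19866 with the median over probes. Between the KO tissues 3005 of 20316 were higher with quantile normalization and 1753 of 20308 lower with normexp. The spleen difference reversed to -0.016 for Ltb with cyclic loess and to -0.19 for Fas at its clone probe. In the marrow the difference of Tnfsf13b went from -0.63 to 3.17 at its RefSeq probe and to 1.27 with the median over probes.

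Over all genes, higher and lower counts in the marrow were 1771 and 1040, and became 1043 and 344 with normexp, 2977 and 3142 at 1.5-fold and, for lower, 2123 with no background filter. In the spleen 3923 and 2862 became 6531 and 1664 with median scaling and 6517 and 4442 at 1.5-fold, and lower became 1384 with normexp. Between WT tissues 3319 and 3376 became 2075 and 2224 with normexp and 5280 and 6030 at 1.5-fold. Between KO tissues 3189 and 2823 became 5570 and 4282 at 1.5-fold, with 5046 higher without the filter and 1753 lower with normexp. The limma genotype term (8 higher, 2 lower) called 327 and 115 with median scaling, 2 and 0 with quantile normalization, 0 and 0 with cyclic loess, 432 and 195 with normexp, 326 and 264 without the filter, 283 and 163 with genes above background on all 4 arrays, and 393 and 337 with a variance trend. The limma tissue term (626 higher, 1188 lower) called 261 and 686 with cyclic loess, and 1118, 1150 and 1165 higher with normexp, no filter and a variance trend.

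The share of higher among genes 2-fold apart moved from 63.0% to 74.9% with cyclic loess, 75.2% with normexp, 51.98% with no filter and 48.7% at 1.5-fold in the marrow. It moved from 57.8% to 79.7% with median scaling, 69.8% with normexp and 47.2% with the median over probes in the spleen, from 49.6% to 38.9% between WT tissues and from 53.0% to 65.1% between KO tissues, both with median scaling. The all-gene median moved from 0.27 to 0.69 in the spleen, from -0.07 to -0.24 between WT tissues and from 0.19 to 0.42 between KO tissues with median scaling, from 0.19 to 0.08 with cyclic loess and 0.34 with normexp between KO tissues, and from 0.27 to 0.09 with the median over probes and 0.37 without the filter in the spleen.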

Other observations

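Other cells known to use these receptors and ligands were followed through their markers. For 6 NK cell markers the sum of signals over the 75th percentile was 2.85 (KO) and 2.49 (WT) in the marrow and 6.26 (KO) and 5.78 (WT) in the spleen. For 8 dendritic cell markers it was 1.65, 1.78, 2.37 and 3.77, with 3 at least 2-fold lower and 0 higher on KO in the spleen. The brightest genes of these lists, Klrd1 and Itgax, had KO minus WT differences of -0.20 and 0.99 in the marrow and 1.38 and -1.06 in the spleen. Of the 6 NK cell markers, 1 was at least 2-fold higher on KO and 0 lower in the marrow, and 1 higher and 2 lower in the spleen. Of the dendritic cell markers, 0 were higher and 1 lower in the marrow. Among all genes, 8.34% were at least 2-fold higher on KO and 4.90% lower in the marrow, and 19.8% and 14.5% in the spleen.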
